A study of Mus musculus with 4 samples.

Results

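The amyloid precursor family, the secretases that cut it, tau and clusterin were followed in cultured mouse cortical neurons given a p53 activator. The 9 genes were App, Aplp1, Aplp2, Bace1, Psen2, Ncstn, Adam10, Mapt and Clu, taken by symbol from a table of 18854 genes, and all 9 were found and passed the filter on low values. All groups were wild-type mouse cortical neurons in culture, at 15 days in vitro. One group (2 libraries) received the p53 activator Nutlin-3 for 2 days, and the other (2 libraries) received DMSO, the solvent. Nutlin-3 keeps Mdm2 from binding p53 and so from marking it for degradation. The labels of the DMSO samples read as untreated in one field while their titles name DMSO. No label states that replicate libraries were grown as separate cultures. The p-values thus rest on differences between these 2 libraries of each group, which may be technical. In limma the spread used is mostly one pooled over genes, not that of the gene alone.

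The precursor protein APP and its relatives APLP1 and APLP2 are membrane proteins of neurons that are shed by proteases. Cleavage by ADAM10, the main alpha-secretase of neurons, releases a soluble ectodomain, while cleavage by BACE1, the beta-secretase, followed by the gamma-secretase complex releases amyloid beta. Presenilin is the catalytic subunit of the gamma-secretase complex and nicastrin a structural one. Tau binds axonal microtubules, and clusterin is a secreted chaperone that binds amyloid beta and is made mostly by astrocytes in the brain.

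Values are given as CPM, the reads of a gene scaled to a total common to all libraries. They rested on 19065197 and 17716272 reads in the p53 activator libraries and on 14584247 and 14968028 in the DMSO libraries. Mitochondrially encoded RNAs took 8.98% and 10.01% of the listed reads with the activator and 15.7% and 14.3% with DMSO, and nuclear protein-coding genes took 83.2% and 82.7% with the activator and 73.6% and 75.9% with DMSO. A rise of a protein-coding gene in CPM therefore stands beside this shift in composition. The p53 targets Mdm2 (log2 fold change -0.16 ± 0.09 SE, limma adjusted p = 0.166) and Cdkn1a (0.19 ± 0.12, adjusted p = 0.215) did not pass the test, nor did Trp53 itself (0.07 ± 0.16, adjusted p = 0.761). Mdm2 was called lower in 3 of the 17 alternatives tried, which were CPM recomputed within protein-coding genes (-0.31, adjusted p = 0.00853), cyclic loess (-0.29, adjusted p = 0.0152) and quantile normalization (-0.24, adjusted p = 0.0455).

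Neither Mdm2 nor Cdkn1a was called higher, and whether p53 was released in these cultures was not tested. Setting p53 activator libraries against DMSO libraries thus compares cultures given Nutlin-3 with cultures given the solvent. Between these groups 7 of the 9 genes rose and 0 fell. The rises were small, with CPM means 1.18-fold to 1.36-fold those of DMSO. Aplp1, Ncstn, Bace1 and Aplp2 had the largest log2 fold changes, App, Mapt and Adam10 had smaller ones, and Psen2 and Clu did not pass the test. A rise means an adjusted p under 0.05 in limma, fitted on log2(CPM + 1) over 16654 genes, where fold changes of low genes are understated. Of all genes tested, 16.9% were called higher and 16.3% lower. Among nuclear protein-coding genes with a mean of at least 10 CPM, which all 9 genes are, 29.9% were called higher and 6.78% lower. The median log2 fold change of the 9 genes was 0.31, beside 0.03 over all genes tested and 0.14 over those protein-coding genes. For 9 of 9 genes both activator libraries lay above both DMSO libraries, beside 36.6% of all genes tested and 57.1% of those protein-coding genes. No gene of the 9 was called lower by edgeR or DESeq2 either, and 0 were lower at an unadjusted p under 0.05 in limma.

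How many genes rose depended on the scaling and on the model of the spread. With CPM recomputed within nuclear protein-coding genes alone, 4 of the 9 rose, beside 4.37% of the genes tested. When these were aligned by cyclic loess, 4 rose, beside 5.03%. In edgeR with TMM scaling of the recovered reads 4 rose as well, beside 10.7%. The same genes rose in all 3, namely Aplp1, Aplp2, Bace1 and Ncstn. DESeq2 called 5 of the 9, beside 6.74% of genes, and these were App, Aplp2, Bace1, Ncstn and Mapt. With limma's spread held free of expression level, 0 of the 9 rose, beside 1.81% of genes, and 7 were higher at an unadjusted p under 0.05. Without DMSO replicate 1, 2 of the 9 rose, beside 6.83% of genes, and without p53 activator replicate 2, 4 rose, beside 11.6%.

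**Figure D1:**
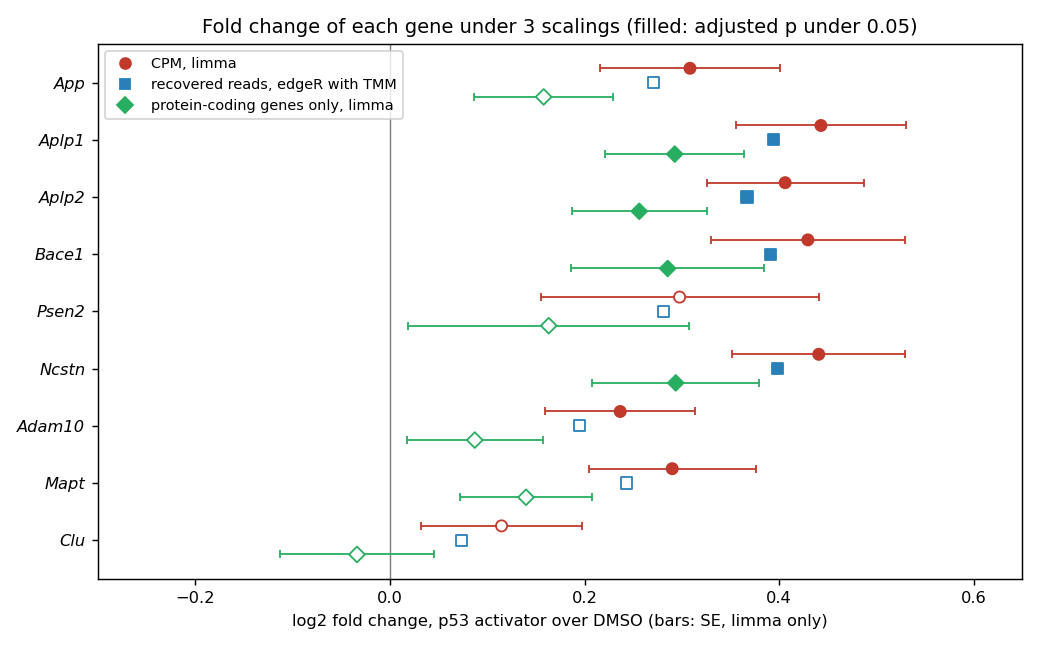
Log2 fold change of each gene (rows), p53 activator over DMSO, for limma on CPM (circles), edgeR with TMM on recovered reads (squares) and limma on CPM recomputed within protein-coding genes (diamonds). Filled symbols passed an adjusted p under 0.05 and bars are SE, drawn for limma only. Aplp1, Aplp2, Bace1 and Ncstn are filled in all 3, and the diamond of Clu lies at -0.034.

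The precursor family was abundant and all its members rose. App had 896 and 1063 CPM with the activator and 755 and 822 CPM with DMSO. The groups did not overlap, but the activator pair, the wider one, was spread by more than the gap between the groups. App rose with a log2 fold change of 0.31 ± 0.09 (SE; 95% interval 0.13 to 0.49; limma adjusted p = 0.00619). That call was lost without p53 activator replicate 2 (0.19, adjusted p = 0.333) or DMSO replicate 1 (0.25, adjusted p = 0.0660), in edgeR (0.27, adjusted p = 0.0618) and with CPM recomputed within protein-coding genes (0.16, adjusted p = 0.116).

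Aplp1, the relative of App that is made almost only in neurons, stood at 640 and 717 CPM with the activator and at 447 and 555 CPM with DMSO. Both activator libraries lay above both DMSO libraries, and the DMSO pair was the wider one. Aplp1 rose by 0.44 ± 0.09 on the log2 scale (SE; limma adjusted p = 3.34e-05). The value was 0.29 without DMSO replicate 1 and 0.60 without DMSO replicate 2, and the call held in each case. DESeq2 did not call it (0.41, adjusted p = 0.146).

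Aplp2, a relative found in most tissues, stood at 352 and 408 CPM with the activator and at 271 and 301 CPM with DMSO. The gap between the groups was wider than the DMSO pair but narrower than the activator pair. It rose by 0.41 ± 0.08 (SE; limma adjusted p = 3.56e-05), and it was called under every alternative but the one that held limma's spread free of expression level (adjusted p = 0.0692).

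The 250 bases before the starts of the 3 family members are shown, from RefSeq on build GRCm38.p6, 5′ to 3′ on the gene's strand. Any part of these bases in the rises was not tested. Capitals mark the GC box GGGCGG, a motif bound by SP1, or its reverse complement CCGCCC. The window of App is chr16:85173708-85173957, minus strand. That of Aplp1 is chr7:30445583-30445832, minus strand, and that of Aplp2 is chr9:31211849-31212098, minus strand.
App: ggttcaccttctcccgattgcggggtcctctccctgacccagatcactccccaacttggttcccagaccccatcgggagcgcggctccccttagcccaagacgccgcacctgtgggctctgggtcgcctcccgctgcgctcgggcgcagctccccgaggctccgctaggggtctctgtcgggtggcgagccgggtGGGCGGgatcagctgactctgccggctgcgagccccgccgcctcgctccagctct
Aplp1: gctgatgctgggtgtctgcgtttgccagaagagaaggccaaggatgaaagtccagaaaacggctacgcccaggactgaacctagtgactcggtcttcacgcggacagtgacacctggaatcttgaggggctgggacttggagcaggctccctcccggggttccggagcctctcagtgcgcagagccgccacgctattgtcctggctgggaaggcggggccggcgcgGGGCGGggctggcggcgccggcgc
Aplp2: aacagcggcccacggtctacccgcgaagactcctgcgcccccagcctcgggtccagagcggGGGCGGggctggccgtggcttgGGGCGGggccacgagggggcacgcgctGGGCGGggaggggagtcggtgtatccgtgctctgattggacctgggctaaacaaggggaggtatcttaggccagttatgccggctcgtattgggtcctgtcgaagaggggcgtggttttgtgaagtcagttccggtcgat
App and Aplp1 each held 1 GC box, 55 and 24 bases before the start, counted to the box's first base. Aplp2 held 3, the nearest 140 bases before the start. Promoters were matched for 6 of the 9 genes, with 7 windows in all, since Psen2 has 2 starts. The box was in 5 of the 7 windows, those of App, Aplp1, Aplp2, Adam10 and one of Psen2, beside 32.7% of 32851 windows of the same length. The p53 response element, taken as a pair of its half-sites with 0 to 13 bases between them on either strand, was in 0 of the 7 windows, beside 0.0639% of all windows. Its single half-site, which every full element also contains, was in 1 of the 7, a window of Psen2, beside 7.13%. These matches describe letters in a window and not binding.

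The GC content of the 3 printed windows was 70.8% for App, 66.0% for Aplp1 and 66.4% for Aplp2, beside a median of 52.4% over all windows. Outside the family it was 74.0% for Adam10, 63.2% for Ncstn, which held no box, and 62.8% and 44.8% for Psen2. All windows, here and for the motifs, include those of genes not expressed in these cultures.

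**Figure D2:**
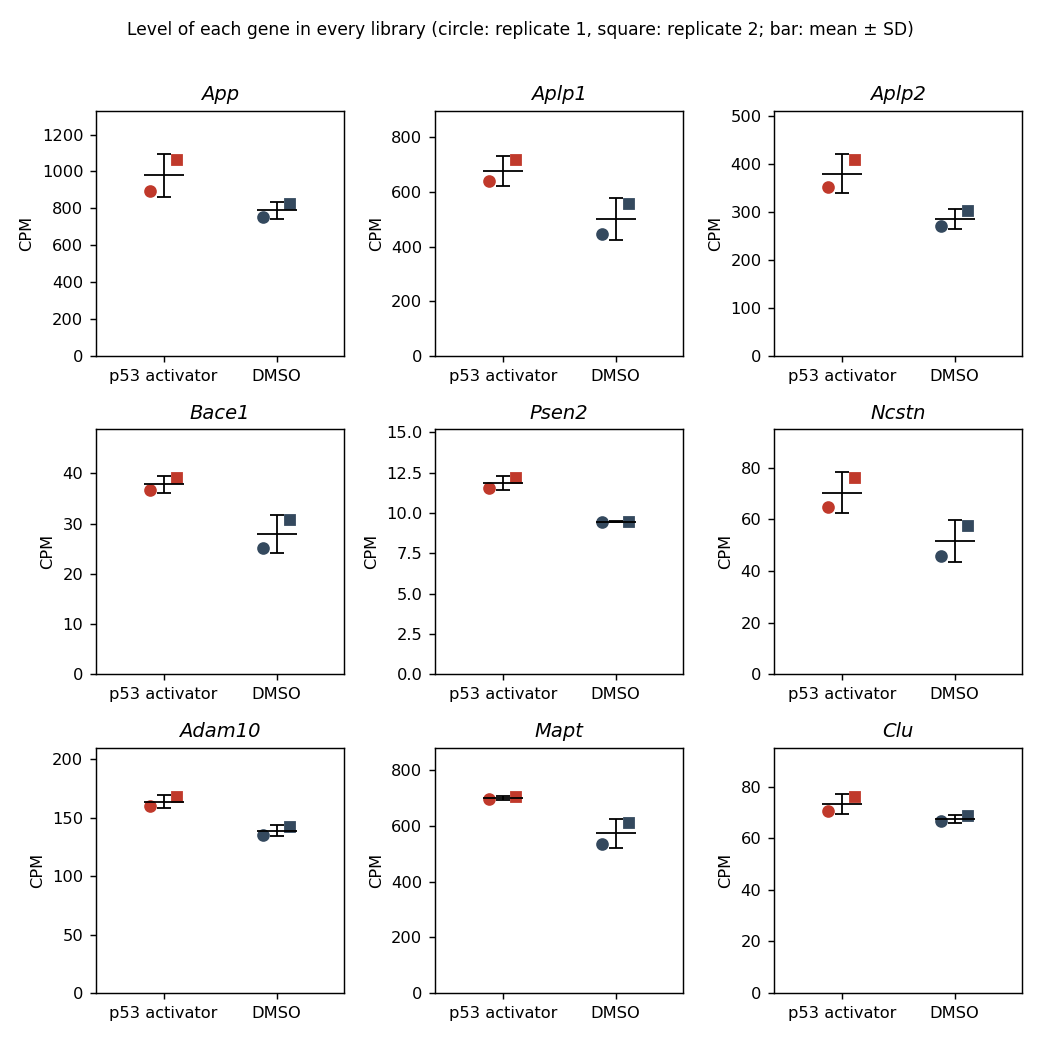
CPM of each gene in every library, with p53 activator on the left and DMSO on the right of each panel (circle, replicate 1; square, replicate 2; bar, mean ± SD, n = 2). The activator libraries lie above the DMSO libraries in all 9 panels, by the least for Clu.

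Both sheddases of the group rose. Bace1 stood at 36.7 and 39.0 CPM with the activator and at 25.2 and 30.7 CPM with DMSO. The lowest of these rested on 368 reads, and the groups did not overlap. It rose by 0.43 ± 0.10 (SE; limma adjusted p = 0.000412). Leaving out DMSO replicate 1 ended the call (0.29, adjusted p = 0.0951). Exons of Rnf214 overlap those of Bace1 by 975 bases on the other strand, and the use of strand in counting is not given in the sources used here. Rnf214 stood at 67.9 and 68.5 CPM with the activator and at 57.0 and 59.0 CPM with DMSO, and its part in the Bace1 value was not tested.

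Adam10 stood at 160 and 168 CPM with the activator and at 136 and 142 CPM with DMSO. The gap between the groups was wider than either pair. It rose by 0.24 ± 0.08 (SE; limma adjusted p = 0.0122). The call was lost without p53 activator replicate 2 (0.20, adjusted p = 0.123), without DMSO replicate 1 (0.20, adjusted p = 0.148), in edgeR (0.19, adjusted p = 0.0804) and with CPM recomputed within protein-coding genes (0.09, adjusted p = 0.429).

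A ratio of 2 genes within a library does not depend on the total that CPM is scaled to. Adam10 reads were 4.36 and 4.30 times those of Bace1 in the activator libraries and 5.38 and 4.63 times in the DMSO libraries. All activator values lay below all DMSO values. The mean log2 ratio was 2.11 ± 0.01 with the activator and 2.32 ± 0.15 with DMSO (SD, n = 2 each), a difference of -0.20. That difference was -0.097 without DMSO replicate 1 and -0.31 without DMSO replicate 2. The exact two-sided permutation p was 0.333, the smallest that 2 libraries against 2 allow, and 0.833 adjusted over the 5 ratios computed.

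Aplp2 reads were 0.392 and 0.384 of those of App with the activator and 0.359 and 0.366 with DMSO, again without overlap (log2 difference 0.10, exact permutation p = 0.333, adjusted 0.833). The ratio of Aplp1 to App was 0.714 and 0.675 with the activator and 0.592 and 0.675 with DMSO, so that the groups met at replicate 2. Mapt reads were 0.775 and 0.662 of those of App with the activator and 0.710 and 0.742 with DMSO, and the groups overlapped. The ratio of Aplp1 to App had a log2 difference of 0.13 (exact permutation p = 0.667, adjusted 0.833), and that of Mapt to App one of -0.02 (exact permutation p = 1). Leaving out 1 library moved the difference of Aplp1 to App between 0.040, without DMSO replicate 1, and 0.23, without DMSO replicate 2. That of Mapt to App ran from -0.13, without p53 activator replicate 1, to 0.095, without p53 activator replicate 2, and was also above 0 without DMSO replicate 2 (0.013).

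**Figure D3:**
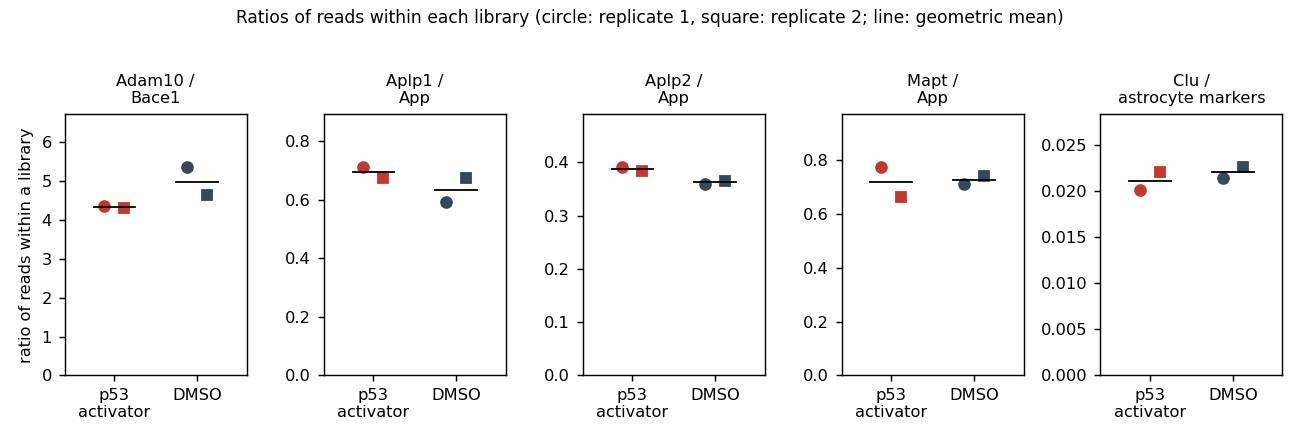
Ratio of reads of 2 genes within each library, p53 activator left and DMSO right (circle, replicate 1; square, replicate 2; line, geometric mean); the last panel divides Clu by the summed astrocyte markers. The Adam10 to Bace1 ratio is 4.36 and 4.30 with the activator and 5.38 and 4.63 with DMSO.

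Of the 2 gamma-secretase genes, nicastrin rose and presenilin 2 did not pass the test. Ncstn, which encodes the subunit that receives substrates, stood at 64.6 and 75.8 CPM with the activator and at 45.8 and 57.5 CPM with DMSO. The groups did not overlap, though each pair was spread by more than 10 CPM, which was more than the gap between the groups. It rose by 0.44 ± 0.09 (SE; limma adjusted p = 5.01e-05). Leaving out DMSO replicate 1 ended the call (0.28, adjusted p = 0.0661). Exons of Copa, a coat protein of Golgi vesicles, overlap those of Ncstn by 195 bases on the other strand. Copa stood at 230 and 244 CPM with the activator and at 174 and 208 CPM with DMSO, and its part in the Ncstn value was not tested.

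Psen2, one of the 2 catalytic presenilins, was the least abundant of the 9, at 11.5 and 12.1 CPM with the activator and 9.46 and 9.42 CPM with DMSO. These rested on 220 and 215 reads with the activator and 138 and 141 with DMSO. The activator pair lay above the DMSO pair. The log2 fold change was 0.30 ± 0.14 (SE; 95% interval 0.01 to 0.58), with a limma adjusted p of 0.0980. Psen2 was called after quantile normalization (0.38, adjusted p = 0.0370), one of the 17 alternatives tried, over which its adjusted p ran to 0.482.

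Mapt, which encodes tau, stood at 695 and 704 CPM with the activator and at 536 and 610 CPM with DMSO. The activator libraries were close together, and both lay above DMSO. Mapt rose by 0.29 ± 0.09 (SE; limma adjusted p = 0.00570). The call was lost without p53 activator replicate 1 (0.30, adjusted p = 0.0613), p53 activator replicate 2 (0.28, adjusted p = 0.0832) or DMSO replicate 1 (0.20, adjusted p = 0.148), in edgeR (0.24, adjusted p = 0.0646) and with CPM recomputed within protein-coding genes (0.14, adjusted p = 0.151).

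Clu, which encodes clusterin, had the smallest difference of the 9. It stood at 70.5 and 76.1 CPM with the activator and at 66.6 and 68.6 CPM with DMSO. The groups did not overlap, but the gap between them was smaller than the spread of the activator pair, as it also was for App, Aplp2 and Ncstn. The log2 fold change was 0.11 ± 0.08 (SE; 95% interval -0.05 to 0.28; limma adjusted p = 0.295). It was -0.034 with CPM recomputed within protein-coding genes (adjusted p = 0.827) and -0.029 after cyclic loess (adjusted p = 0.834).

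Clu was read beside markers of other cell types. The 12 astrocyte markers, all listed, summed to 3500 and 3436 CPM with the activator and to 3106 and 3022 CPM with DMSO. The ratio of means was 1.13, but the sum leans on the most abundant marker, Slc1a2. It stood at 1572 and 1569 CPM with the activator and at 1311 and 1310 CPM with DMSO. The median log2 fold change of the 12 was 0.06, with 7 above 0, and -0.09 with CPM recomputed within protein-coding genes. Over all genes tested 16.9% rose in limma on CPM, and 29.9% of nuclear protein-coding genes with a mean of at least 10 CPM did. Among the 12 astrocyte markers 1 rose (8.33%). That was the glutamate transporter Slc1a2 (log2 fold change 0.26, limma adjusted p = 0.0362), which was not called in edgeR (adjusted p = 0.117) or without p53 activator replicate 1 (adjusted p = 0.255), p53 activator replicate 2 (0.246) or DMSO replicate 1 (0.0582). The glial transporter Slc1a3 stood at 632 and 650 CPM with the activator and at 567 and 557 CPM with DMSO (adjusted p = 0.0733). Clu divided by the summed markers gave 0.0202 and 0.0221 with the activator and 0.0214 and 0.0227 with DMSO, which overlapped (log2 difference -0.06, exact permutation p = 0.667), and the difference was 0.0054 without p53 activator replicate 1 and -0.13 without p53 activator replicate 2. In bulk samples fewer cells of a type and less RNA per cell cannot be told apart. Their part in the Clu value was not tested.

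The 13 neuron markers, all listed, summed to 4088 and 4156 CPM with the activator and to 3093 and 3351 CPM with DMSO, a ratio of means of 1.28. Of the 13, 9 rose (69.2%) and 1 fell, beside 29.9% and 6.78% of nuclear protein-coding genes with a mean of at least 10 CPM. Of genes tested, 10.7% rose in edgeR and 4.37% with CPM recomputed within protein-coding genes. The share was 5.03% after cyclic loess and 1.81% with limma's spread held free of expression level. Rises numbered 7 in edgeR, 6 with CPM recomputed within protein-coding genes, 6 without p53 activator replicate 2, 2 after cyclic loess and 1 with limma's spread held free of expression level. The vesicle proteins Syt1 (log2 fold change 0.43) and Snap25 (0.38) were the most abundant. Without p53 activator replicate 2 the call of Syt1 was lost (0.38, adjusted p = 0.0782). The one that fell was the splicing regulator Rbfox3 (-0.27, limma adjusted p = 0.00468), and without p53 activator replicate 2 (adjusted p = 0.0619) or DMSO replicate 1 (adjusted p = 0.0860) its call was lost. Among microglia markers P2ry12 stood at 1.63 and 0.960 CPM with the activator and at 2.88 and 1.67 CPM with DMSO and was not called (log2 fold change -0.50 ± 0.21 SE, limma adjusted p = 0.0547), though it was called lower in 5 of the 17 alternatives. The 6 of 9 vascular and fibroblast markers that were listed summed to 18.9 and 21.2 CPM with the activator and to 21.1 and 20.2 CPM with DMSO, led by Dcn and Pdgfrb, and Lum was under 1 CPM in all libraries. Of the 5 of these that were tested 1 rose (20.0%), beside 16.9% of all genes tested. The gene was that of the endothelial receptor Kdr, named after its values were seen. Kdr stood at 1.10 and 1.24 CPM with the activator and at 0.343 and 0.601 CPM with DMSO (0.57 ± 0.22, limma adjusted p = 0.0364), and its call was lost with any 1 library left out (adjusted p from 0.0631 to 0.310). Oligodendrocyte lineage markers, 9 of 12 listed and led by Olig1 and Olig2, summed to 203 and 201 CPM with the activator and to 183 and 179 CPM with DMSO, with 0 of 7 tested called in limma, edgeR or DESeq2 and 3 higher at an unadjusted p under 0.05 in limma. The summed neuron markers moved the same way as the 7 genes that rose, and their part in those rises was not tested.

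The highest value was in p53 activator replicate 2 for 9 of 9 genes, beside 30.03% of the 8746 protein-coding genes with a mean of at least 10 CPM. The lowest value was in DMSO replicate 1 for 8 of 9, all but Psen2, beside 44.1% of those protein-coding genes. Levels per kilobase of exon spanned a wide range, taken with the exon lengths of GENCODE vM21. The length of a gene was that of its annotated exons merged over all transcripts. It was 12996 bases for App, 7531 for Mapt and 3017 for Aplp1. The order below rests on these lengths, which can exceed those of the RNAs present. In CPM, App stood above Aplp1, with means of 980 and 679 with the activator and 789 and 501 with DMSO. Aplp1 was highest, at 225 ± 18.2 CPM per kb with the activator and 166 ± 25.5 with DMSO (SD, n = 2 each). Mapt followed at 92.9 ± 0.855 with the activator and 76.1 ± 6.94 with DMSO, and App at 75.4 ± 9.05 with the activator and 60.7 ± 3.66 with DMSO. Aplp2 had 64.7 ± 6.83 with the activator and 48.7 ± 3.59 with DMSO.

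Adam10 came next at 33.3 ± 1.17 CPM per kb with the activator and 28.3 ± 0.923 with DMSO. Clu had 21.3 ± 1.14 with the activator and 19.7 ± 0.419 with DMSO, and Ncstn 17.7 ± 1.99 with the activator and 12.99 ± 2.07 with DMSO. Bace1 had 5.96 ± 0.261 with the activator and 4.40 ± 0.605 with DMSO. Psen2 was lowest, at 2.73 ± 0.0973 with the activator and 2.18 ± 0.00689 with DMSO. The order was the same in both groups. Neighbours in it did not overlap in either group, except App and Aplp2, which overlapped with the activator.

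The log2 fold changes were set beside the genomic span of the genes. Aplp1, Ncstn and Bace1, which span 10.6, 16.8 and 25.8 kb of genome, had log2 fold changes of 0.44, 0.44 and 0.43, and Aplp2, at 62.3 kb, one of 0.41. Adam10, Mapt and App span 101, 101 and 224 kb and had log2 fold changes of 0.24, 0.29 and 0.31. Clu, at 13.1 kb, had 0.11 and Psen2, at 36.4 kb, 0.30, so Clu stood apart from the other short genes. Over protein-coding genes with a mean of at least 10 CPM, the median log2 fold change was 0.17 for the 4115 that span under 30 kb, 0.12 for the 2910 between 30 and 100 kb and 0.08 for the 1721 over 100 kb. No test was made of this relation, which was looked at after the values were seen.

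The genes whose pattern was closest to 3 of the 9 were named by the root-mean-square distance of centred log2(CPM + 1) values over the 4 libraries, among 9705 other genes with a mean of at least 10 CPM. For App they were Pigt (0.0101), Sel1l3 (0.0125) and P4hb (0.0140). For Mapt they were Cbln4 (0.00568), Dipk1b (0.00869) and Lpl (0.00908), and for Clu Manf (0.00632), Phlpp1 (0.00640) and Kcnb2 (0.00781). With 4 libraries many genes lie close: 203, 697 and 781 genes stood within 0.05 of App, Mapt and Clu, in that order.

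Other genes around the precursor and tau were counted by group, and each share is read beside the 29.9% of nuclear protein-coding genes with a mean of at least 10 CPM that were called higher. Of 8 other subunits of gamma-secretase and other sheddases tested, 2 rose and 0 fell, with a median log2 fold change of 0.18. That share was not above the 29.9%. Aph1b, a scaffold subunit of gamma-secretase, stood at 60.3 and 56.8 CPM with the activator and at 45.4 and 50.5 CPM with DMSO (log2 fold change 0.28 ± 0.09 SE, limma adjusted p = 0.00800). Bace2, a relative of Bace1, stood at 13.6 and 13.5 CPM with the activator and at 11.2 and 9.42 CPM with DMSO (0.37 ± 0.14, adjusted p = 0.0301). These 2 genes are named because they were called, and neither pair of groups overlapped. Upward, 57.1% of nuclear protein-coding genes with a mean of at least 10 CPM had no overlap either. The call of Aph1b was lost without p53 activator replicate 1 (adjusted p = 0.0784) or DMSO replicate 1 (0.209), and that of Bace2 in edgeR (0.0513) and without p53 activator replicate 1 (0.108), p53 activator replicate 2 (0.0991) or DMSO replicate 2 (0.262). The sheddase Adam9 was the most abundant without a call, at 53.7 and 53.9 CPM with the activator and 47.7 and 49.3 CPM with DMSO. The count was 0 with CPM recomputed within protein-coding genes, 1 in edgeR, 0 in DESeq2 and 0 without p53 activator replicate 1.

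Among 27 sorting receptors and adaptors that bind the precursor or guide its traffic, 12 rose (44.4%) and 2 fell, with a median of 0.17. Sort1, which encodes the sorting receptor sortilin, stood at 316 and 343 CPM with the activator and at 227 and 256 CPM with DMSO (log2 fold change 0.45 ± 0.08 SE, limma adjusted p = 3.25e-06). Lrp1, a large endocytic receptor, stood at 500 and 598 CPM with the activator and at 388 and 425 CPM with DMSO (0.43 ± 0.08). Apbb1, which encodes the adaptor FE65 that binds the tail of the precursor, stood at 226 and 217 CPM with the activator and at 171 and 175 CPM with DMSO (0.36 ± 0.08). In all 3, which were picked for the smallest p, the groups were apart. So they were, upward, in 57.1% of nuclear protein-coding genes with a mean of at least 10 CPM. Itm2b, an abundant membrane protein, stood at 229 and 229 CPM with the activator and at 213 and 211 CPM with DMSO and was not called (0.11, adjusted p = 0.272).

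The 2 genes that fell are named for that, after their values were seen. Cd2ap, an endocytic adaptor, fell with a log2 fold change of -0.45 (limma adjusted p = 0.000835), and this call held in edgeR (adjusted p = 0.000534) and with each library left out in turn. Lrp1b, a relative of Lrp1, fell with -0.20 (adjusted p = 0.0379), and this call was lost without p53 activator replicate 1 (0.204), p53 activator replicate 2 (0.0766), DMSO replicate 1 (0.0945) or DMSO replicate 2 (0.228). The rises of the group numbered 10 in edgeR, 4 with CPM recomputed within protein-coding genes, 8 without p53 activator replicate 1, and 7 without p53 activator replicate 2 or DMSO replicate 1.

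**Figure D4:**
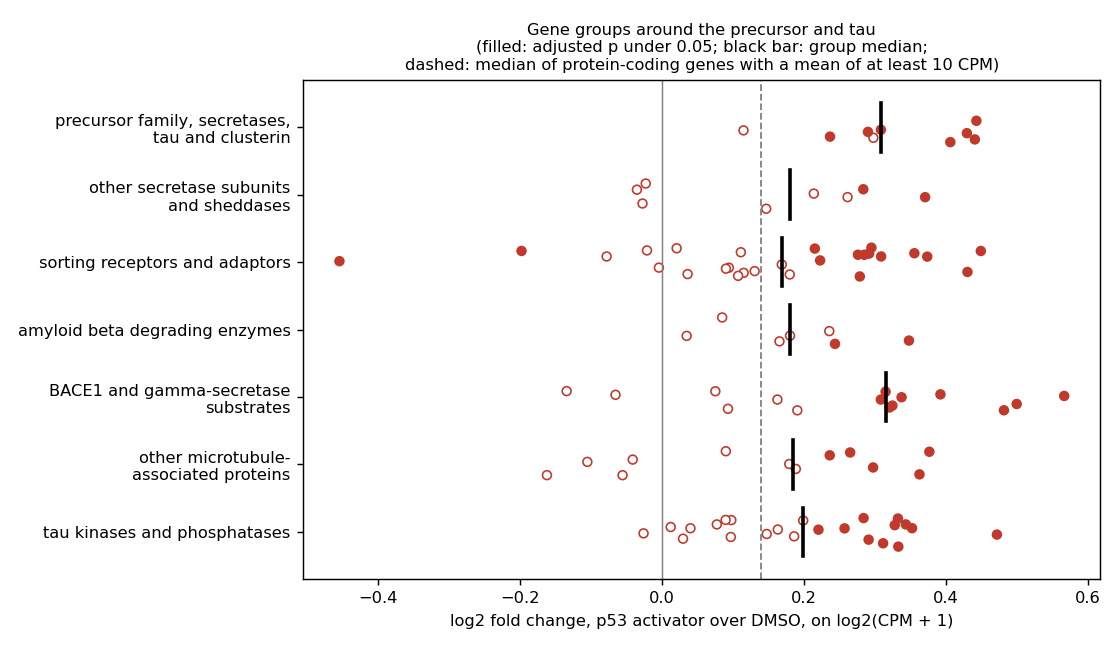
Log2 fold change, p53 activator over DMSO, of each tested gene (points) in 7 gene groups (rows); filled points passed a limma adjusted p under 0.05, black bars are group medians and the dashed line is the median of 0.14 over protein-coding genes with a mean of at least 10 CPM. The medians of the precursor family group and of the secretase substrates are 0.31, and those of the other groups lie between 0.17 and 0.20.

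Of 15 tested substrates of BACE1 and gamma-secretase, 9 rose and 0 fell, with a median of 0.31. Dner, a Notch-related membrane protein of neurons, stood at 430 and 525 CPM with the activator and at 286 and 359 CPM with DMSO (log2 fold change 0.57 ± 0.09 SE, limma adjusted p = 6.83e-08). Sez6l2, a shed membrane protein, stood at 144 and 170 CPM with the activator and at 103 and 118 CPM with DMSO (0.50 ± 0.08), and the adhesion molecule L1cam at 283 and 345 CPM with the activator and at 204 and 244 CPM with DMSO (0.48 ± 0.08). These 3 genes were picked for the smallest p, and their groups did not overlap. The same held, upward, for 57.1% of nuclear protein-coding genes with a mean of at least 10 CPM. Erbb4, a receptor of neuregulins, was not called (0.19, adjusted p = 0.0552). The count of rises was 9 in edgeR, 6 in DESeq2, 4 with CPM recomputed within protein-coding genes, 4 without p53 activator replicate 2 and 6 without DMSO replicate 1.

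Of 7 tested enzymes that degrade amyloid beta, 2 rose and 0 fell, with a median of 0.18, while Ece2 was too low to be tested. That share, 28.6%, was near the 29.9%. The lysosomal proteases Ctsb and Ctsd were those that rose. Ctsb stood at 266 and 284 CPM with the activator and at 207 and 225 CPM with DMSO (log2 fold change 0.35 ± 0.08 SE, limma adjusted p = 0.000237), and Ctsd at 212 and 222 CPM with the activator and at 177 and 189 CPM with DMSO (0.24 ± 0.08, adjusted p = 0.00966). Ide, the insulin-degrading enzyme, was not called (0.17, adjusted p = 0.0919). The call of Ctsd was lost in edgeR (0.0793) and without p53 activator replicate 2 (0.110) or DMSO replicate 1 (0.160), which left 1 gene of the group in each case.

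Beside Mapt, 5 of 12 other genes of microtubule-associated proteins rose (41.7%) and 0 fell, with a median of 0.18. The plus-end binding proteins Mapre2 (286 ± 3.72 CPM with the activator and 220 ± 1.32 with DMSO, SD, n = 2 each) and Mapre1 (256 ± 18.9 CPM with the activator and 199 ± 5.39 with DMSO) rose by 0.38 and 0.36 on the log2 scale. Map4, a microtubule stabiliser, rose by 0.27 (limma adjusted p = 0.00687), a call lost in edgeR (0.0703) and without p53 activator replicate 1 (0.0720), p53 activator replicate 2 (0.0563) or DMSO replicate 1 (0.135). Map2, the dendritic relative of tau, stood at 3564 and 3602 CPM with the activator and at 3605 and 4121 CPM with DMSO, and was not called (-0.11, adjusted p = 0.581). With CPM recomputed within protein-coding genes Map2 was called lower (-0.26, adjusted p = 0.0152), and 2 of the group rose and 4 fell. Over all 13040 genes tested in that setting 570 rose and 1707 fell. Rises numbered 2 in edgeR, and 2 without p53 activator replicate 1, p53 activator replicate 2 or DMSO replicate 1.

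Of 23 kinases, phosphatases and cofactors that act on tau, 11 rose (47.8%) and 0 fell, with a median of 0.20. Ppp2ca, a catalytic subunit of the phosphatase PP2A, stood at 377 and 343 CPM with the activator and at 262 and 256 CPM with DMSO (log2 fold change 0.47 ± 0.08 SE, limma adjusted p = 9.56e-07). Cdk5r1, which encodes the CDK5 activator p35, stood at 340 and 343 CPM with the activator and at 258 and 277 CPM with DMSO (0.35 ± 0.08), and the kinase gene Csnk1d at 88.4 and 89.3 CPM with the activator and at 69.7 and 71.0 CPM with DMSO (0.33 ± 0.08). The tau tubulin kinase Ttbk1 was the most abundant gene of the group without a call (0.04, adjusted p = 0.728). Rises numbered 10 in edgeR, 6 in DESeq2, 3 with CPM recomputed within protein-coding genes and 5 without DMSO replicate 1.

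For the secretase, substrate, degrading enzyme, microtubule and tau kinase groups, in which 0 genes fell, 0 were also lower at an unadjusted p under 0.05 in limma, and 0 fell in edgeR or DESeq2. With CPM recomputed within protein-coding genes, 1 substrate, 4 microtubule and 2 tau kinase genes were lower at an unadjusted p under 0.05 in limma, and after cyclic loess 1, 4 and 3 were. Of these the 4 microtubule genes, Map2, Map1a, Map6 and Map7, also fell after adjustment in both, out of 12 tested. Over all genes tested, 1707 of 13040 fell with CPM recomputed within protein-coding genes and 1250 of 12763 after cyclic loess. The shares of all genes lower at an unadjusted p are not given here.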

How the data were processed

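TRIzol was used to extract total RNA from the cultures, and ribosomal RNA was removed with a depletion kit, per the labels' protocols. The submitters' processing notes name TopHat2, Cufflinks 2.0.0 and the build mm9, with no role. How reads were counted, with which annotation, strand setting and row filter, is not given in the sources used here. The authors deposited 1 table with a CPM column per library. No header names the unit, which follows from the numbers: dividing each column by its smallest non-zero value returned whole reads in 100% of cells, to a tolerance of 0.01 reads.

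The filter asked for 1 CPM or more in 2 or more libraries and kept 16654 of 18854 genes. limma 3.58.1 in R 4.3.3 was fitted to log2(CPM + 1) with a trend of the spread, Benjamini-Hochberg adjusted, two-sided. Beside 2 residual degrees of freedom the moderation added 98.0 prior ones, so a call rests mostly on the pooled spread. Recovered reads were tested with edgeR 4.0.16 (quasi-likelihood, TMM) and DESeq2 1.42.0 as alternatives. The limma step was also run on simulated data without a shift in composition between the groups. Its outcome is not reported here and is not used as support for the calls. Gene classes and lengths came from GENCODE vM21, in which 15861 symbols matched 1 gene. No batch is given in the labels. Genes named were all members, the 3 called genes of each pathway group with the smallest p and its most abundant uncalled gene, the 2 most abundant markers of each cell type, the drug check and the most alike genes. One marker and the sum of its list are not reported here. Members, lists and tests were chosen with earlier results of these data known.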

Additional observations from a re-analysis of the deposited data

How the results depend on the processing

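Psen2 was the most thinly counted of the 9 genes, with 138 to 220 reads in a library, followed by Bace1 with 368 to 699. With 2 libraries a group, each value leans on single libraries. The number of the 9 genes called higher was 7 with all libraries and ranged from 2 to 7 when 1 library was left out. It was 4 with TMM size factors, beside 1822 genes called higher of all 16654 tested. The count was also 4 in edgeR, 4 with CPM recomputed within protein-coding genes and 4 after cyclic loess. With limma's spread held free of expression level it was 0. It was 7 at the pseudocounts of 0.1 and 0.5, with no filter, at a minimum of 5 CPM and with robust moderation, beside 2629 to 2872 genes. Those alternatives left the scaling as it was. With no filter and at a minimum of 5 CPM the genes tested were not the same 16654, so the gene counts are not shares of 1 total. After quantile normalization the count was 6, beside 1632 genes, with Psen2 called but not Adam10 or Mapt. DESeq2 called 5, beside 1123 genes, without Aplp1 and Adam10. None of the 17 alternatives called one of the 9 genes lower. The log2 fold change of Clu turned negative, to -0.034 with CPM recomputed within protein-coding genes and to -0.029 after cyclic loess, and the cause was not tested. After cyclic loess, rises numbered 0 among other secretases, 2 among sorting genes, 0 among degrading enzymes, 4 among substrates, 1 among microtubule genes (with 4 falls), 1 among tau kinases and 2 among neuron markers. With limma's spread held free of expression level no group had more than 1 rise. Replicate numbers are not said to pair libraries. The correlation of same-numbered libraries' deviations from their group means was 0.12 over 16654 genes, and with the replicate block 7 of the 9 genes were called higher and 0 lower. Over all genes 3705 were then called higher, against 2811 without the block.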
